A study of Mus musculus with 25 samples.

Results

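Platelet-derived growth factor (PDGF) and fibroblast growth factor (FGF) signaling genes were examined in lung cells sorted before and after bleomycin injury. The set held 10 genes, taken by name from a fixed list. These were the PDGF receptors Pdgfra and Pdgfrb, the ligand Pdgfa, the ligands Fgf2, Fgf7, Fgf10 and Fgf18, and the FGF receptors Fgfr1, Fgfr2 and Fgfr4. All 10 were among the 47729 genes of the bulk RNA-seq table and among the 15773 genes that had enough reads to be tested.

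All mice were Col1a1-Cre-ERT2;Fas fl/fl, in which tamoxifen-activated Cre is driven by the promoter of Col1a1, a collagen gene, and removes exon 9 of the death receptor gene Fas. Mice were naive, or were examined 3 or 6 weeks after intratracheal bleomycin, a drug that causes lung fibrosis. Bleomycin-instilled mice injected with tamoxifen are called Fas-/- (labelled FasDel), and those injected with corn oil are called Fas+/+ (labelled WT), so deletion and tamoxifen exposure cannot be told apart. The sorted cells were Lin– (CD45–, CD31– and CD326–), which leaves fibroblasts, pericytes, smooth muscle and mesothelial cells and should remove blood, endothelial and epithelial cells. Cre is made where the Col1a1 promoter is active, and how far Fas was deleted in each kind of Lin– cell was not analysed here.

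Bulk RNA-seq gave 5 groups of 4 libraries: naive, 3-week Fas+/+, 3-week Fas-/-, 6-week Fas+/+ and 6-week Fas-/-. The study's methods count replicates as single animals, and the labels do not name the animal behind each bulk library. Single-cell RNA-seq gave 1 library for each of the same 5 conditions, each from pooled mice. Bulk libraries held 11819700 to 25189096 counted reads. Levels are given as CPM, the read count of a gene scaled to a common library size.

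PDGF receptors are tyrosine kinases on mesenchymal cells. PDGFRα is the main receptor of PDGF-A and marks alveolar fibroblasts, while PDGFRβ responds to PDGF-B and is known for its role in pericytes. FGF7 and FGF10 are secreted by mesenchyme and act mainly on an epithelial form of FGFR2, whereas FGF2 and FGF18 act mainly on other FGF receptor forms. FGFR4 is a further FGF receptor. Receptor signals pass through ERK, which raises feedback genes of the Spry, Spred, Dusp and Etv families.

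Before the member results, sorting purity must be stated, because some libraries stood apart. The summed level of 8 blood endothelial markers was 155 to 445 CPM in naive libraries. It was 2555 to 9956 CPM at 3 weeks in Fas+/+ mice, 632 to 8905 CPM at 3 weeks in Fas-/- mice, 463 to 1799 CPM at 6 weeks in Fas+/+ mice and 93.5 to 2838 CPM at 6 weeks in Fas-/- mice. Replicate 1 of the 3-week Fas+/+ group and replicate 4 of the 3-week Fas-/- group were the highest. Member results at 3 weeks are therefore given with and without these 2 libraries. They were picked after seeing the data, and the remaining 3-week Fas+/+ libraries still held at least 2555 CPM of these markers. Summed profibrotic fibroblast markers (Cthrc1, Postn and others) also varied, from 10883 to 56262 CPM in 3-week Fas+/+ and 19616 to 48311 CPM in 3-week Fas-/- libraries. They were 12418 to 17323 CPM in naive libraries. Whether leaving out the 2 libraries changes more than purity was not tested. Summed erythroid markers stood apart in the naive group, at 2979 to 9589 CPM. At 3 weeks they were 27.8 to 89.5 CPM in Fas+/+ and 17.1 to 24.5 CPM in Fas-/- mice. At 6 weeks they were 88.4 to 235 CPM and 21.3 to 62.0 CPM. Their part in the differences from naive was not tested. Fas itself was not called between genotypes (edgeR adjusted p = 0.91 at 3 weeks and 0.719 at 6 weeks), but counts over the whole gene include exons outside the deleted one and check little.

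Pdgfra, Fgf7, Fgf10 and Fgfr4 fell at 3 weeks after bleomycin in both genotypes, and the other 6 members did not pass the test. In Fas+/+ mice 4 of 10 members were lower and none was higher, against 19.2% of all tested genes lower. In Fas-/- mice the same 4 members were lower and none was higher, against 14.8% of all tested genes lower. Over the 10 members the median was -0.32 on the log2 scale in Fas+/+ and -0.25 in Fas-/- mice, against 0.011 and 0.020 over all tested genes. In either direction 41.3% of tested genes were called in Fas+/+ mice and 32% in Fas-/- mice. Libraries of the 2 groups compared did not overlap for 4 of 10 members in each genotype, as for 32.2% of all tested genes in Fas+/+ and 31.1% in Fas-/- mice, so these counts stand near the background. Calls are edgeR quasi-likelihood tests with a Benjamini-Hochberg adjusted p of 0.05 or less over all 15773 genes. Both comparisons share the naive libraries.

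Since these 4 genes moved together, the 250 bases before the start of each are shown, from RefSeq on GRCm38.p6, all on the plus strand, where the start can differ from the gene's first base in the annotation used for counting. Capitals mark a CCAAT box or a GC box (GGGCGG, or CCGCCC where it lies on the other strand).
Pdgfra, chr5:75152001-75152250: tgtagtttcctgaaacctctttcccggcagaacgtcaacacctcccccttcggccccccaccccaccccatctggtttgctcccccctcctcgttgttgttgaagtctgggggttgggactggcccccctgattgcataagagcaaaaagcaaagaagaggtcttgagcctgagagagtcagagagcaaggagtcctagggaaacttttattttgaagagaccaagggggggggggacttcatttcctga
Fgf7, chr2:126034408-126034657: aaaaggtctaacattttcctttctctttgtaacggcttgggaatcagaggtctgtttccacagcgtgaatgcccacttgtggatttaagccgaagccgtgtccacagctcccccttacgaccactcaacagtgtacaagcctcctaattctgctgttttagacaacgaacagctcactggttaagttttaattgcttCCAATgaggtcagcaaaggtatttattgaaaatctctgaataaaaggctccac
Fgf10, chr13:118714449-118714698: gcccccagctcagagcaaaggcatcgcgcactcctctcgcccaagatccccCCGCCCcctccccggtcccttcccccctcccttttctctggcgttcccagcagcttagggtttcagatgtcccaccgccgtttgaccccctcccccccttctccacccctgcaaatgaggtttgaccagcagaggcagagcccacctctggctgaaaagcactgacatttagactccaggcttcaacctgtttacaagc
Fgfr4, chr13:55152568-55152817: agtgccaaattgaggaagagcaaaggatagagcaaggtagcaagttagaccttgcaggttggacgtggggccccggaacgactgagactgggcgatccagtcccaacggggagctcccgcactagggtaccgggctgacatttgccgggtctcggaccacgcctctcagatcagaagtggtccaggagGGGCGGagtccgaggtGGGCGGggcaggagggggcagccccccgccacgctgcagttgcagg

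The 4 windows did not share a motif among those searched on both strands, which were the TATA box TATAAA, the CCAAT box, the GC box GGGCGG and the E-box CAGCTG. The Fgfr4 window held a GC box at each of 2 places and had 64.0% G and C, the Fgf10 window held 1 and had 61.2%, and the Fgf7 window held the only CCAAT box and had 43.6%. The Pdgfra window held none of the 4 motifs and had 54.4%. Over 32851 RefSeq promoters the share with a GC box was 32.7%, with a CCAAT box 33.8%, with TATAAA 12.4% and with CAGCTG 13.0%, and the median G and C content was 52.4%. Of the 10 members 8 had a promoter entry, and 5 of these 8 held a GC box. A match describes letters only.

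Pdgfra, the PDGFRα gene (chromosome 5, 75152292 to 75198215, plus strand, GRCm38), was the most abundant member per kilobase of exon in naive libraries. Its level was 2100, 1829, 2069 and 2148 CPM in the 4 naive libraries, with a mean of 2036 ± 142 (SD, n = 4). It was 1155, 864, 965 and 1111 CPM in the 3-week Fas+/+ libraries and 1403, 1346, 1562 and 1081 CPM in the 3-week Fas-/- libraries. All 8 libraries at 3 weeks lay below the lowest naive library. The level fell 1.99-fold in Fas+/+ mice (log2 fold change -0.99 ± 0.14 SE, edgeR adjusted p = 3.54e-05) and 1.51-fold in Fas-/- mice (-0.60 ± 0.14, edgeR adjusted p = 0.00333). At 6 weeks it was 1886, 1483, 1562 and 1725 CPM in Fas+/+ and 1422, 1581, 2015 and 2033 CPM in Fas-/- libraries. Both 6-week groups overlapped the naive range and did not pass the test against naive (edgeR adjusted p = 0.241 and 0.409).

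Pdgfrb, the PDGFRβ gene (chromosome 18, 61045150 to 61085061, plus strand), had naive levels of 973, 1019, 849 and 754 CPM. It was 508, 887, 859 and 786 CPM at 3 weeks in Fas+/+ mice and 780, 868, 766 and 407 CPM at 3 weeks in Fas-/- mice. The lowest library of each 3-week group was the one highest in blood endothelial markers, and the groups overlapped the naive range. The log2 fold change from naive was -0.24 ± 0.21 in Fas+/+ and -0.35 ± 0.21 in Fas-/- mice (edgeR adjusted p = 0.376 and 0.214). At 6 weeks group means were 751 ± 72.7 CPM for Fas+/+ and 810 ± 175 CPM for Fas-/- mice, against 899 ± 120 CPM in naive mice.

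Pdgfa, which encodes a ligand of PDGFRα (chromosome 5, 138976014 to 138997370, minus strand), was 48.3, 58.7, 52.2 and 48.5 CPM in naive libraries. It was 42.6, 80.8, 78.5 and 67.2 CPM at 3 weeks in Fas+/+ mice and 68.0, 77.5, 67.7 and 29.3 CPM at 3 weeks in Fas-/- mice. In each 3-week group 3 libraries were above every naive library and the endothelial-marker-high library was below all of them. The test did not pass in either genotype (log2 fold change 0.37 ± 0.22 and 0.22 ± 0.22, edgeR adjusted p = 0.188 and 0.466). Without those 2 libraries it passed in both, with log2 fold changes of 0.54 ± 0.089 (edgeR adjusted p = 0.000109) and 0.45 ± 0.089 (edgeR adjusted p = 0.000952).

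Fgf7, also known as keratinocyte growth factor (chromosome 2, 126034658 to 126091185, plus strand), was lower in every library after bleomycin than in any naive library. It was 80.1, 79.6, 70.1 and 66.2 CPM in naive libraries. It was 40.1, 30.7, 37.3 and 44.2 CPM in 3-week Fas+/+ libraries and 41.4, 43.1, 44.7 and 38.0 CPM in 3-week Fas-/- libraries. The groups did not overlap, and the level fell 1.94-fold in Fas+/+ mice (-0.96 ± 0.11, edgeR adjusted p = 4.64e-06) and 1.77-fold in Fas-/- mice (-0.82 ± 0.10, edgeR adjusted p = 3.63e-05). At 6 weeks it was 59.7, 55.9, 54.6 and 57.4 CPM in Fas+/+ and 64.0, 47.5, 59.6 and 60.5 CPM in Fas-/- libraries, all below the lowest naive library. The 6-week levels were 1.30-fold lower than naive in Fas+/+ mice (edgeR adjusted p = 0.04) and 1.28-fold lower in Fas-/- mice (edgeR adjusted p = 0.0499), both close to the threshold.

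Fgf10, a mesenchymal ligand needed for lung branching (chromosome 13, 118669791 to 118792115, plus strand), was 74.2, 62.1, 85.2 and 75.4 CPM in naive libraries. It was 36.3, 30.7, 34.7 and 39.6 CPM at 3 weeks in Fas+/+ mice and 53.2, 45.3, 54.9 and 37.7 CPM at 3 weeks in Fas-/- mice. Neither 3-week group overlapped the naive libraries, although 1 Fas-/- library lay within the Fas+/+ range. The level fell 2.10-fold in Fas+/+ mice (-1.07 ± 0.12, edgeR adjusted p = 5.27e-06) and 1.55-fold in Fas-/- mice (-0.64 ± 0.12, edgeR adjusted p = 0.000793). At 6 weeks it was 60.7, 55.4, 52.0 and 54.2 CPM in Fas+/+ libraries, 1.33-fold below naive (edgeR adjusted p = 0.0478), and 62.4, 52.7, 68.4 and 64.5 CPM in Fas-/- libraries, where the test did not pass (edgeR adjusted p = 0.218).

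Fgf2, or basic FGF (chromosome 3, 37348346 to 37410108, plus strand), was not called against naive in any group with all libraries. It was 126, 106, 109 and 126 CPM in naive libraries, 61.1, 119, 147 and 143 CPM at 3 weeks in Fas+/+ mice and 164, 182, 168 and 75.9 CPM at 3 weeks in Fas-/- mice. As for Pdgfa, the endothelial-marker-high library was the lowest of each 3-week group. The test did not pass in either genotype (log2 fold change 0.0063 ± 0.24 and 0.34 ± 0.24, edgeR adjusted p = 0.987 and 0.298). Without those libraries Fgf2 was higher than naive in Fas-/- mice (0.55 ± 0.093, edgeR adjusted p = 0.000248) and did not pass in Fas+/+ mice (0.22 ± 0.093, edgeR adjusted p = 0.0619). Fgf2 overlaps the antisense genes Nudt6 and Fgf2os in the annotation, and Fgf7 overlaps Fam227b on the other strand. The library kit keeps strand, but the strand setting used in counting is not given in the sources used here, so reads of such partners may be included.

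Fgf18, known in lung for alveolar development (chromosome 11, 33117430 to 33147400, minus strand), was 9.35, 17.7, 18.3 and 17.7 CPM in naive libraries and between 7.64 and 19.1 CPM in the 16 libraries after bleomycin. All 5 groups overlapped. The log2 fold change at 3 weeks was -0.39 ± 0.26 in Fas+/+ and -0.16 ± 0.26 in Fas-/- mice (edgeR adjusted p = 0.24 and 0.68).

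Fgfr4 (chromosome 13, 55152640 to 55168759, plus strand) showed the largest change of the 10 members at 3 weeks. It was 284, 186, 274 and 225 CPM in naive libraries. It was 122, 54.7, 44.5 and 69.8 CPM in 3-week Fas+/+ libraries and 112, 100, 132 and 73.2 CPM in 3-week Fas-/- libraries, so neither group reached the lowest naive library. The level fell 3.32-fold in Fas+/+ mice (-1.73 ± 0.26, edgeR adjusted p = 6.51e-05) and 2.32-fold in Fas-/- mice (-1.21 ± 0.25, edgeR adjusted p = 0.0018). At 6 weeks it was 240, 160, 196 and 161 CPM in Fas+/+ libraries, overlapping naive, and 145, 153, 180 and 140 CPM in Fas-/- libraries, all below the lowest naive library. The 6-week tests did not pass (edgeR adjusted p = 0.472 in Fas+/+ and 0.136 in Fas-/- mice, where the log2 fold change was -0.65 ± 0.25).

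Fgfr1, the receptor used by FGF2 in fibroblasts (chromosome 8, 25513654 to 25575718, plus strand), was 394 to 445 CPM in naive libraries. It was 267, 411, 443 and 420 CPM at 3 weeks in Fas+/+ mice and 465, 491, 467 and 330 CPM at 3 weeks in Fas-/- mice, with log2 fold changes of -0.16 ± 0.14 and 0.03 ± 0.14 (edgeR adjusted p = 0.381 and 0.897). Fgfr2 (chromosome 7, 130162451 to 133123350, minus strand) was 46.3, 52.2, 47.5 and 54.9 CPM in naive libraries and 57.6, 54.0, 68.6 and 67.1 CPM in 6-week Fas-/- libraries. That was its widest difference from naive and did not pass the test (0.30 ± 0.097, edgeR adjusted p = 0.0769). With the 2 endothelial-marker-high libraries left out of the fit Fgfr2 passed at 3 weeks (0.29 ± 0.091, edgeR adjusted p = 0.0174) and at 6 weeks in Fas-/- mice (0.30 ± 0.085, edgeR adjusted p = 0.0257), while in Fas+/+ mice the values were 0.20 ± 0.092 and 0.18 ± 0.085 (edgeR adjusted p = 0.0795 and 0.168).

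**Figure D1:**
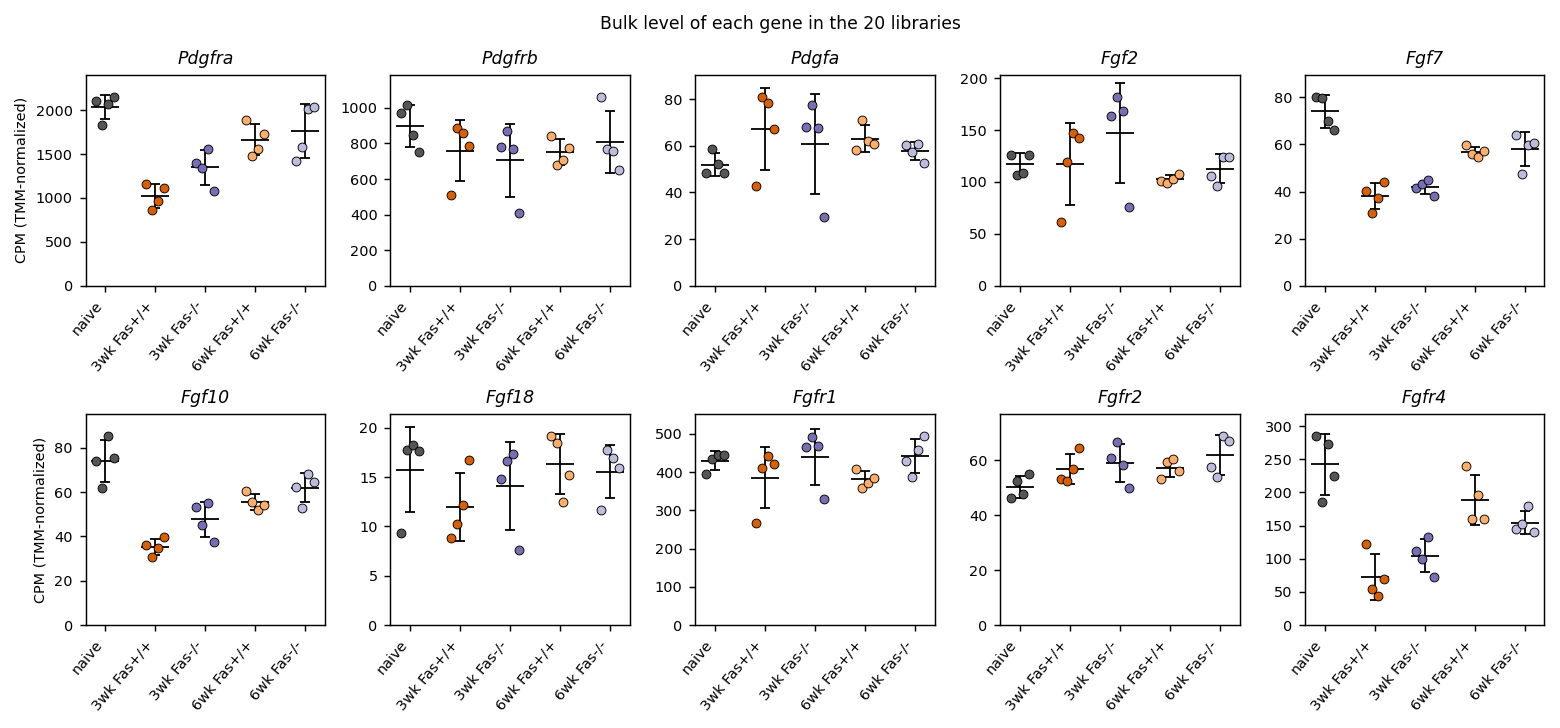
Level of each of the 10 members (CPM, linear axis from 0) in every bulk library, by group, with the group mean and SD (n = 4). Pdgfra, Fgf7, Fgf10 and Fgfr4 are lower in all 8 libraries at 3 weeks than in any naive library, and single low libraries at 3 weeks stand out for Pdgfrb, Pdgfa, Fgf2 and Fgfr1.

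Each of the 4 calls at 3 weeks held in both genotypes when any 1 of the 20 libraries was left out, and for each of them the two-sided exact permutation test gave 0.0286, the smallest p that 4 against 4 libraries allow. Without the 2 endothelial-marker-high libraries 5 members were called in Fas+/+ mice, against 50.7% of all tested genes, and 7 in Fas-/- mice, against 37.6%. In Fas+/+ mice the log2 fold changes were then -2.10 for Fgfr4, a 4.30-fold fall, -1.06 for Pdgfra, -0.99 for Fgf7 and -1.09 for Fgf10, and in Fas-/- mice -1.08, -0.51, -0.79 and -0.54 in the same gene order, each called by edgeR. Pdgfrb (-0.093 and -0.16), Fgf18 (-0.27 and 0.042) and Fgfr1 (-0.020 and 0.14) were not called in Fas+/+ or Fas-/- mice. In the same fit 3 members were called at 6 weeks in Fas+/+ mice (Pdgfa, Fgf7 and Fgf10), against 13.2%, and 3 in Fas-/- mice (Fgf7, Fgfr2 and Fgfr4), against 15%. Neither left-out library belongs to these 6-week comparisons, where the SE changed and the log2 fold change hardly did. For Pdgfa in Fas+/+ mice it was 0.28 ± 0.22 with all libraries and 0.28 ± 0.083 without the 2. Between 3 and 6 weeks 6 were called in Fas+/+ mice (Pdgfra, Pdgfa, Fgf2, Fgf7, Fgf10 and Fgfr4), against 36.2%, and 3 in Fas-/- mice (Pdgfa, Fgf2 and Fgf7), against 16.8%, with Pdgfa and Fgf2 lower at 6 weeks in both. For the difference between genotypes over time 1 member (Fgfr4) was called, against 2.46%. With the mean of epithelial markers as a covariate only Fgf7 passed in 3-week Fas-/- mice. Summed epithelial markers were 50.5 to 128 CPM in naive libraries and at least 140 CPM in all others, and their part in the result was not tested.

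**Figure D2:**
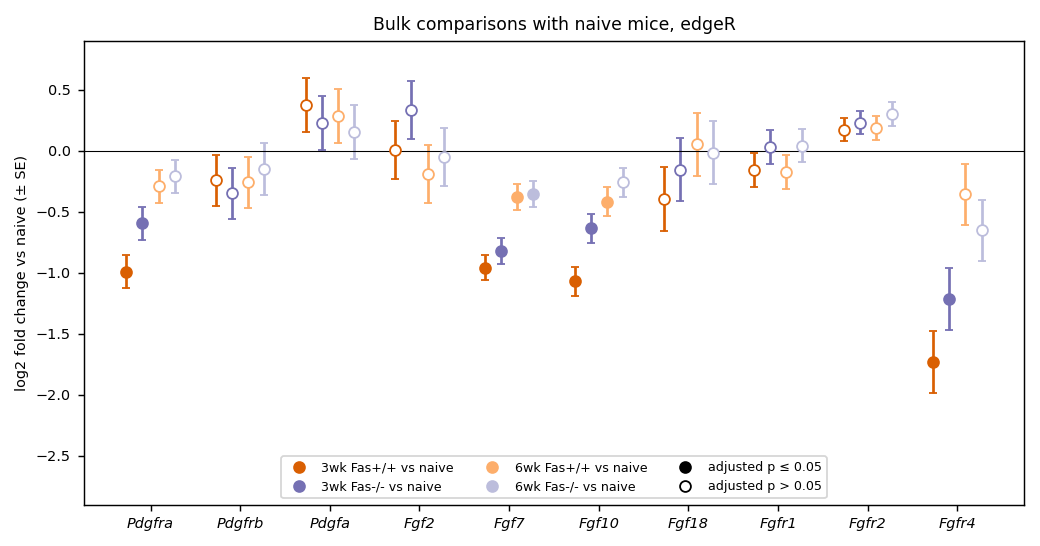
Log2 fold change from naive (vertical axis) with its SE for the 10 members in the 4 bleomycin groups, from edgeR with 4 libraries a group. Values for Pdgfra, Fgf7, Fgf10 and Fgfr4 are the farthest below 0 at 3 weeks and nearer to 0 at 6 weeks.

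At 6 weeks the difference from naive was smaller for each of these 4 genes. In Fas+/+ mice 2 of 10 members were lower, Fgf7 and Fgf10, against 1.74% of all tested genes lower and 5.31% called in either direction. In Fas-/- mice 1 of 10 was lower, Fgf7, against 2.81% lower and 6.48% called in either direction. Libraries did not overlap with naive for 2 of 10 members in Fas+/+ mice, against 16.6% of all tested genes, and for 2 of 10 in Fas-/- mice (Fgf7 and Fgfr4), against 16.1%. When 1 library at a time was left out the count ranged from 0 to 2 in each genotype, and Fgf10 in Fas+/+ mice lost its call in 13 of 20 fits, Fgf7 in Fas-/- mice in 14 and Fgf7 in Fas+/+ mice in 7.

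Between 3 and 6 weeks the same 4 genes rose in Fas+/+ mice, 4 of 10 members against 12% of all tested genes higher and 22.9% called in either direction. Pdgfra rose by 0.70 ± 0.14 on the log2 scale (edgeR adjusted p = 0.00155), Fgf7 by 0.58 (edgeR adjusted p = 0.00101), Fgf10 by 0.65 (edgeR adjusted p = 0.00109) and Fgfr4 by 1.37 ± 0.25 (edgeR adjusted p = 0.00117). In Fas-/- mice 1 of 10 members rose, Fgf7 by 0.47 (edgeR adjusted p = 0.0116), against 4.48% of all tested genes higher and 9.02% called in either direction. There the values were 0.39 for Pdgfra, 0.38 for Fgf10 and 0.56 for Fgfr4 (edgeR adjusted p = 0.079, 0.0549 and 0.166). The difference between genotypes in the change over time was tested directly. By edgeR and by DESeq2 0 of 10 members passed, against 0.00634% of tested genes called by edgeR. By edgeR 1 member had an unadjusted p under 0.05, beside 1210 of 15773 tested genes. For Fgfr4 the difference was -0.81 ± 0.35 (edgeR adjusted p = 0.605) and for Pdgfra -0.31 (edgeR adjusted p = 0.766).

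The genotypes were also compared at each time. At 3 weeks 0 of 10 members were called by edgeR or DESeq2, against 0.171% of all tested genes by edgeR. By edgeR 2 members had an unadjusted p under 0.05, beside 1359 of all 15773 tested genes. The 2 members were Fgf10 (0.44 ± 0.12 higher in Fas-/- on the log2 scale, edgeR adjusted p = 0.171) and Pdgfra (0.40 ± 0.14, edgeR adjusted p = 0.33). Libraries of the genotypes overlapped for both genes. Fgfr4 averaged 104 ± 24.7 CPM for Fas-/- and 72.8 ± 34.6 CPM for Fas+/+ mice (edgeR adjusted p = 0.586). Without the 2 endothelial-marker-high libraries these 3 genes were called higher in Fas-/- mice, Fgfr4 by 1.02 ± 0.19 (edgeR adjusted p = 0.00824), Fgf10 by 0.54 ± 0.12 (edgeR adjusted p = 0.0199) and Pdgfra by 0.55 ± 0.13 (edgeR adjusted p = 0.0302), when 2.55% of all tested genes were higher. The left-out Fas+/+ library was the highest of its group for Fgfr4 (122 CPM) and Pdgfra (1155 CPM). The left-out Fas-/- library was the lowest of its group for Fgfr4 (73.2 CPM), Pdgfra (1081 CPM) and Fgf10 (37.7 CPM). For Fgfr4 and Pdgfra the libraries taken out were thus those nearest to the other genotype. The call therefore depends on those libraries, which were picked after seeing the data. At 6 weeks 0 of 10 were called by edgeR or DESeq2, against 0.0507% of all tested genes by edgeR. No member had an unadjusted p under 0.05 by edgeR, against 1273 of 15773 tested genes, and the members' median difference was 0.096.

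The 4 genes that fell moved with the markers of several cell types, alveolar lipofibroblasts among them. The summed level of 9 alveolar lipofibroblast markers (lipid-storing fibroblasts of the alveolar wall, marked by Tcf21, Wnt2 and others) was 9749 to 11442 CPM in naive libraries. It was 3361 to 5582 CPM at 3 weeks in Fas+/+ mice, 5467 to 7214 CPM at 3 weeks in Fas-/- mice, 7251 to 9048 CPM at 6 weeks in Fas+/+ mice and 7882 to 9576 CPM at 6 weeks in Fas-/- mice. Of these 9 markers 8 were lower at 3 weeks in Fas+/+ mice, while in Fas-/- mice 5 were lower and 1 was higher. Across the 20 libraries, which share the group differences and the sort, Pearson's r between the members' level and the mean of these markers was 0.97 for Fgfr4, 0.95 for Pdgfra, 0.92 for Fgf10 and 0.86 for Fgf7. It was 0.19 for Pdgfrb, 0.15 for Fgfr1, -0.05 for Fgf2 and -0.27 for Pdgfa. With the blood endothelial marker mean r was -0.76 for Pdgfra, -0.85 for Fgf10, -0.81 for Fgf7 and -0.67 for Fgfr4. With lymphatic endothelial markers it was -0.89 for Fgf7 and -0.88 for Fgf10, with pericyte markers 0.83 for Fgfr4 and 0.77 for Fgf7, and with profibrotic fibroblast markers -0.84 for Fgfr4. Markers of other mesenchymal cells were lower at 3 weeks too. In Fas+/+ and Fas-/- mice these were 7 and 7 of 7 for pericytes, 5 and 6 of 8 for smooth muscle and 5 and 4 of 6 for mesothelium. For adventitial fibroblasts 5 and 6 of 9 were lower and 1 and 0 higher. For airway or ductal myofibroblasts 4 and 3 of 5 were lower. All 5 erythroid and 1 and 3 of 4 Schwann cell markers were lower. Higher were 8 and 7 of 9 profibrotic, 8 and 7 of 8 blood endothelial and all 6 lymphatic endothelial markers. So were 7 and 7 of 7 tested immune, 7 and 8 of 9 tested epithelial, 5 and 3 of 5 cycling and 3 and 3 of 4 platelet markers. Over all tested genes 19.2% and 14.8% were lower and 22.1% and 17.2% higher. In bulk samples fewer cells of a type and less RNA per cell cannot be told apart, and the markers' part in the result was not tested.

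**Figure D3:**
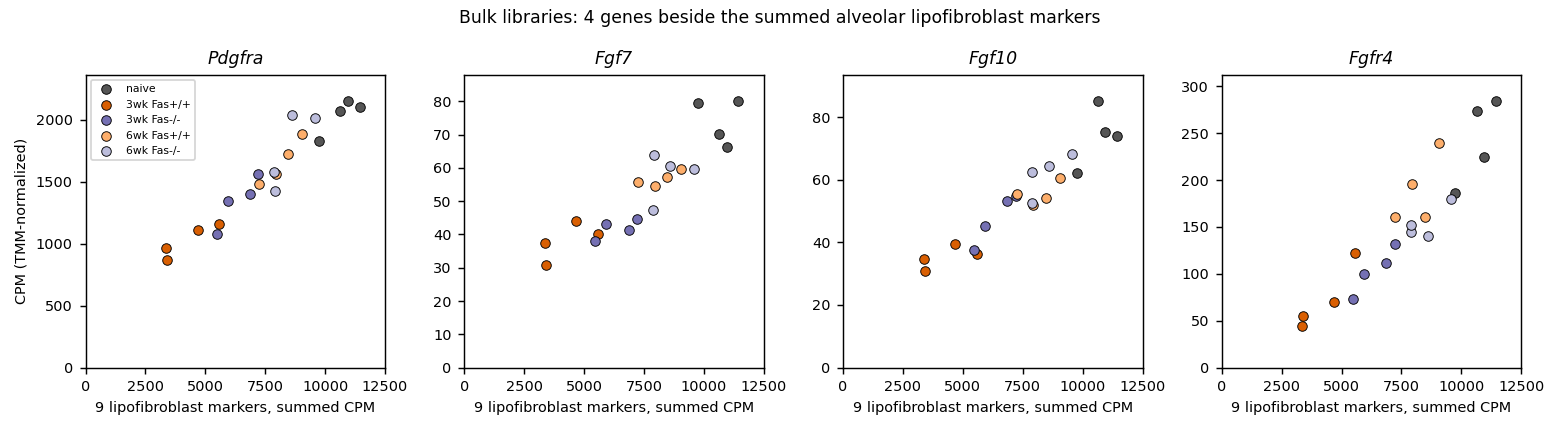
Level of the members (CPM) against the summed level of 9 alveolar lipofibroblast markers (CPM), 1 point per bulk library, colored by group, linear axes from 0. Pdgfra, Fgf7, Fgf10 and Fgfr4 follow the marker sum, with naive libraries at the upper right and 3-week Fas+/+ libraries at the lower left.

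The members fell into patterns across the 20 libraries. Pearson's r was 0.95 between Pdgfra and Fgf10, 0.91 between Pdgfra and Fgfr4, 0.90 between Fgf7 and Fgf10 and 0.88 between Pdgfra and Fgf7. Another pair was Fgf2 and its receptor Fgfr1, with r = 0.86. Among the tested genes most like each member were Enpep and Ogn for Fgfr4 (both r = 0.98), Npr2 for Fgf10 (0.96), 9330159F19Rik and Npr2 for Pdgfra (both 0.97), Osr1 for Fgf7 (0.96) and Postn for Pdgfrb (0.93). For Fgf2 the closest gene was Dpysl3 (0.93), for Fgfr1 Ltbp1 (0.95), for Pdgfa Prkar2b (0.89), for Fgf18 Fstl3 (0.82) and for Fgfr2 Wdr75 (0.81). These are descriptions over libraries that share group and sort.

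Per kilobase of exon, the scale on which genes can be ranked, the naive order was Pdgfra (203 ± 14.2 CPM per kb), Pdgfrb (164 ± 21.9), Fgfr4 (68.4), Fgfr1 (43.5), Fgf7 (22.8), Fgf2 (17.2), Pdgfa (16.6), Fgf10 (16.1), Fgf18 (13.3) and Fgfr2 (4.86). The ranges of Pdgfra and Pdgfrb overlapped, as did those of neighbors from Fgf2 to Fgf18. At 3 weeks in Fas+/+ mice Pdgfrb (139 CPM per kb) stood above Pdgfra (102), with overlapping ranges, and Fgfr4 (20.6) was below Fgfr1 (39.0) and next to Pdgfa (21.6). At 6 weeks in Fas+/+ mice Pdgfra, Pdgfrb, Fgfr4 and Fgfr1 had the naive order again, with Fgfr4 at 53.4 and Fgfr1 at 38.6 CPM per kb. In 6-week Fas-/- mice Fgfr1 (44.7) and Fgfr4 (43.5) overlapped.

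Other genes of the pathway were called in both directions at 3 weeks. Over all tested genes 41.3% were called in Fas+/+ and 32% in Fas-/- mice in either direction, with 22.1% and 17.2% higher. The counts of the lists below are small and are to be read beside these shares. Of 4 other PDGF genes, 2 were higher at 3 weeks in both genotypes. Pdgfb, a ligand made largely by endothelial cells and platelets, rose from 7.34 ± 3.08 CPM in naive libraries to 149 ± 102 CPM in Fas+/+ (log2 fold change 4.34 ± 0.86, edgeR adjusted p = 0.000774) and 81.9 ± 98.8 CPM in Fas-/- libraries (3.48 ± 0.83, edgeR adjusted p = 0.0046). Its highest libraries reached 301 and 230 CPM, and the endothelial marker sums above rose at the same time. Without the 2 endothelial-marker-high libraries the Pdgfb changes were 3.74 and 2.14 (edgeR adjusted p = 0.000136 and 0.0129). Pdgfc, a PDGFRα ligand, rose by 1.90 and 1.63 on the log2 scale (edgeR adjusted p = 0.00222 and 0.00868).

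Of 18 other FGF ligands 7 were tested. In Fas+/+ mice Fgf1 (0.95, edgeR adjusted p = 0.0196) and Fgf23 (5.27, edgeR adjusted p = 0.000244) were higher and Fgf16 (-1.05, edgeR adjusted p = 0.0277) was lower. In Fas-/- mice Fgf23 was higher (4.23, edgeR adjusted p = 0.00202) and Fgf9 (-1.17) and Fgf11 (-0.29) were lower (edgeR adjusted p = 0.0153 and 0.0217). Fgf23, a hormone of phosphate balance known mainly from bone, remained low in reads, at 0.272 ± 0.0703 CPM in naive and 10.8 ± 8.62 CPM in 3-week Fas+/+ libraries. Of 6 other receptors and binding proteins 5 were tested, and Fgfr3 (-0.72, edgeR adjusted p = 0.0166) and Fgfbp1 (-1.16, edgeR adjusted p = 0.026) were lower in Fas+/+ mice, with none called in Fas-/- mice.

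Of 10 FGF and ERK feedback targets 6 were higher and 1 was lower at 3 weeks in each genotype, when 22.1% of all tested genes were higher in Fas+/+ and 17.2% in Fas-/- mice. The 6 were Spry2, Spry4, Spred3, Dusp6, Etv4 and Etv5, and the list's median log2 fold change was 0.55 in Fas+/+ and 0.62 in Fas-/- mice. Dusp6, an ERK phosphatase, was 116 ± 12.7 CPM in naive, 257 ± 37.8 CPM in 3-week Fas+/+ and 210 ± 56.0 CPM in 3-week Fas-/- libraries (1.15 and 0.86, edgeR adjusted p = 2.6e-05 and 0.000531). Etv4, a transcription factor induced by FGF signals, was 0.641 ± 0.288 CPM in naive and 15.2 ± 10.3 CPM in 3-week Fas+/+ libraries, with a range of 1.03 to 25.1 (4.54, edgeR adjusted p = 0.000172). Spry1, an inhibitor of the same pathway, went the other way, from 237 ± 22.9 CPM to 151 ± 7.68 CPM in Fas+/+ and 179 ± 15.8 CPM in Fas-/- libraries (-0.65 and -0.41, edgeR adjusted p = 8.1e-05 and 0.00487).

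Without the 2 endothelial-marker-high libraries 9 feedback targets were called in Fas+/+ mice, 7 of them higher, and 8 in Fas-/- mice, 7 of them higher. In that fit 50.7% and 37.6% of all tested genes were called in either direction. With the epithelial marker mean as a covariate 2 and 1 were called, and no share over all tested genes was computed for that fit. Of the other pathway genes named at 3 weeks, without the 2 libraries Fgf16 lost its call in Fas+/+ mice (edgeR adjusted p = 0.073), Fgfr3 there became -1.16 and Plcg1 in Fas-/- mice 0.31. Endothelial and epithelial cells also use these genes, and the markers' part in the counts was not tested. At 6 weeks 0 of 10 feedback targets were called against naive in either genotype by edgeR or DESeq2. By edgeR 2 and 4 had an unadjusted p under 0.05, beside 3078 and 3307 of 15773 tested genes. Over all tested genes edgeR called 5.31% in Fas+/+ and 6.48% in Fas-/- mice, so a count of 0 stands near the background. Between 3 and 6 weeks 4 of 10 feedback targets fell and 1 rose in Fas+/+ mice, and 2 fell in Fas-/- mice. Over all tested genes 22.9% and 9.02% were called in either direction. Spry4 fell by 0.64 and Etv4 by 2.92 on the log2 scale in Fas+/+ mice and by 0.80 and 2.40 in Fas-/- mice. In Fas+/+ mice Dusp6 fell by 0.87, Spred3 fell and Spry1 rose by 0.47. Of the other lists Pdgfc, Fgf23, Grb2 and Plcg1 fell and Fgf11, Fgf13, Fgfr3, Fgfbp1 and Gab1 rose in Fas+/+ mice. In Fas-/- mice Fgf11, Frs2 and Gab1 rose. All of these were called by edgeR.

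Of 8 adaptors, which link the receptors to ERK, Gab1 was lower at 3 weeks in both genotypes, from 123 ± 10.6 CPM in naive to 84.03 ± 9.80 CPM in Fas+/+ and 83.5 ± 3.00 CPM in Fas-/- libraries (-0.54 and -0.55, edgeR adjusted p = 6.4e-05 and 0.000104). Plcg1 was higher in both (0.97 and 0.72, edgeR adjusted p = 0.00427 and 0.0302). Grb2 was higher in Fas+/+ mice (0.20, edgeR adjusted p = 0.0233) and Frs2 lower in Fas-/- mice (-0.19, edgeR adjusted p = 0.0286). At 6 weeks Gab1 was lower than naive in Fas-/- mice (-0.29, edgeR adjusted p = 0.0395) and was the only gene of the 5 other lists called against naive at that time. None of these pathway genes was called between genotypes by edgeR, with 2 at an unadjusted p under 0.05 at 3 weeks (Spry1 and Fgf9) and 3 at 6 weeks (Frs2, Fgfbp1 and Pdgfrl). Over all 15773 tested genes 1359 and 1273 had such a p by edgeR at these times.

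Single-cell libraries showed which Lin– cells held each member. Of 13900 barcodes 12059 passed the filters of 200 to 7500 genes and at most 20% mitochondrial UMIs (unique molecular identifiers, 1 per captured RNA). The libraries kept 603 naive, 2664 3-week Fas+/+, 2608 3-week Fas-/-, 3240 6-week Fas+/+ and 2944 6-week Fas-/- cells, with median depths of 7876, 8896, 5768, 7151 and 8675 UMIs. Cells were clustered without the members and the other pathway genes, and clusters were named from fixed marker lists, so class names need not match those of the study. With 1 library per condition no test was possible, and the 95% intervals given cover counting error only.

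Some of these libraries shared cell barcodes. In all, 1502 kept cells had a barcode also kept in another library, 85 to 257 for each pair of libraries. In the naive library these were 344 of 603 cells (57.0%), in the others 5.99% to 14.3%. Naive values of the classes described are given with and without these cells. In the naive library the shared cells were the deeper ones, with a median of 12177.5 UMIs against 4597 for the rest. Of the 344, 333 had their highest UMI count there. In the other libraries shared cells had medians of 759 to 1130 UMIs. Naive values without them therefore rest on shallower cells, and which copies are the true cells was not tested. The doublet caller marked 46 of 12059 cells (0.381%), too few for it to have worked, so doublets remain. In 23 clusters 11 cell classes could be named, and 5 clusters stayed unnamed and are called by their leading genes.

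By median over libraries Pdgfra was highest in an unnamed cluster led by Ppp4r4, Snhg11 and Macf1, at 1642 CPM. This cluster was shallow, with a median of 3733 UMIs. Alveolar lipofibroblast-like cells came next, at 1371 CPM. The lipofibroblast-like class held 36.8% of all Pdgfra UMIs. Its level by library was 1436 CPM (95% interval 1377 to 1496) in naive, 1429 (1395 to 1463) in 3-week Fas+/+, 1177 (1140 to 1214) in 3-week Fas-/-, 1371 (1329 to 1414) in 6-week Fas+/+ and 1138 (1104 to 1173) in 6-week Fas-/- cells. Naive and 3-week Fas+/+ cells of this class had nearly the same level. The bulk libraries, which hold all sorted cells, had a 3-week Fas+/+ mean of 1024 ± 134 CPM against 2036 ± 142 CPM. Both Fas-/- libraries were below both Fas+/+ libraries. In bulk, over all sorted cells, the Fas-/- mean was instead above the Fas+/+ mean at each time. It was 1348 ± 200 CPM at 3 weeks, and 1763 ± 309 against 1664 ± 179 CPM at 6 weeks, with neither difference called with all libraries. Without shared barcodes the 5 values were 1474, 1429, 1194, 1370 and 1141 CPM. Profibrotic fibroblast-like cells, which were led by Spp1, Cthrc1 and Grem1, held 473, 345, 250 and 261 CPM in the 4 bleomycin libraries in the same order.

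The lipofibroblast-like share of cells was 27.4% in the naive library, 18.7% and 21.4% in 3-week Fas+/+ and Fas-/- libraries, and 9.63% and 14.9% in 6-week Fas+/+ and Fas-/- libraries. The blood endothelial-like share ran from 1.49% in the naive library to 36.5% in the 6-week Fas+/+ library, so shares depend on sort purity. Over all kept cells Pdgfra was 691, 628, 540, 360 and 447 CPM in the same library order. The whole libraries thus did not follow the bulk order either. In bulk the Fas+/+ mean was lowest at 3 weeks (1024 CPM) and higher at 6 weeks (1664 CPM), against 2036 CPM in naive libraries. In single cells the lowest value was that of 6-week Fas+/+ cells. The cause of this difference was not tested.

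Fgfr4 had 58.2% of its UMIs in lipofibroblast-like cells. The unnamed clusters led by Saa3, by Clec11a and by Ppp4r4 held 14.1%, 12.9% and 7.83%. In each of these clusters the lipofibroblast list scored highest, but too low for a name. The Ppp4r4 cluster had a median of 128 CPM over libraries, with a range of 93.5 to 306. In lipofibroblast-like cells Fgfr4 was 238 CPM (214 to 263) in naive, 225 (212 to 239) in 3-week Fas+/+, 130 (118 to 143) in 3-week Fas-/-, 193 (178 to 210) in 6-week Fas+/+ and 179 (166 to 193) in 6-week Fas-/- cells. The 3-week Fas-/- value was the lowest of these 5 libraries and its interval met no other. In bulk, over all sorted cells, the order at 3 weeks was the other way. There the means were 104 ± 24.7 CPM in Fas-/- and 72.8 ± 34.6 CPM in Fas+/+ libraries, not called with all libraries. The 3-week Fas-/- single-cell library was also the shallowest, and the cause of the opposite order was not tested. Without shared barcodes the naive value was 242 CPM (201 to 288). At least 1 Fgfr4 UMI was found in 61.8% of lipofibroblast-like cells and in 1.29% of blood endothelial-like cells, which should lack it. After thinning to 2000 UMIs, which leaves out shallower cells, the shares were 30.8% of 1572 and 0.497% of 1601 cells. Fgfr4 was among the 10 genes with the highest fold in the main lipofibroblast-like cluster, although it took no part in the clustering.

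Fgf7 and Fgf10 were spread over several fibroblast classes. Fgf7 was 222 CPM (199 to 246) in naive lipofibroblast-like cells and 166, 181, 154 and 140 CPM in the 3-week Fas+/+, 3-week Fas-/-, 6-week Fas+/+ and 6-week Fas-/- libraries. Without shared barcodes the naive value was 180 CPM (146 to 221), an interval that includes the 3-week values. That value rests on 76 of the 165 naive cells of the class. When only the copy of each barcode with the most UMIs was kept, all 165 naive cells stayed. The naive Fgf7 value was then still 222 CPM, so the reading depends on how shared barcodes are treated. In the cluster led by Clec11a, Mmp3 and Tmem35a Fgf7 was 184, 174, 186, 153 and 133 CPM in library order. Fgf10 was highest in this last cluster, at 99.96, 97.3, 85.0, 85.0 and 85.9 CPM, and was 62.9, 66.0, 76.5, 60.9 and 77.2 CPM in lipofibroblast-like cells. Without shared barcodes the naive Fgf10 values were 62.6 CPM (32.3 to 109) in the cluster and 44.1 CPM (27.97 to 66.2) in lipofibroblast-like cells, and naive Fgf7 in the cluster was 167 CPM. Neither class showed a fall in Fgf10 near the size seen in bulk.

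Pdgfrb was highest in pericyte-like cells. These cells, which wrap capillaries, held 36.8% of its UMIs, at 2132, 1910, 1616, 1798 and 1793 CPM in library order, while the median was 315 CPM in smooth muscle-like cells. Pericyte-like cells also held Pdgfa, at 640, 593, 669, 687 and 700 CPM. By median Pdgfa was highest in epithelial-like cells, at 688 CPM over 3 libraries, next to 669 CPM in pericyte-like cells. Profibrotic fibroblast-like cells held 28.3% of its UMIs, pericyte-like cells 20.2% and epithelial-like cells 9.16%. Without shared barcodes the naive pericyte-like values were 2249 CPM for Pdgfrb and 650 CPM for Pdgfa. Profibrotic fibroblast-like cells had 75.8 CPM of Pdgfa (64.1 to 89.1) in 3-week Fas+/+, 150 (134 to 169) in 3-week Fas-/-, 158 (149 to 167) in 6-week Fas+/+ and 191 (183 to 201) in 6-week Fas-/- cells. At each time the Fas-/- library was higher, with 1 library per condition. Median depths of these cells were 12883, 8047, 26944 and 25604 UMIs in the same order. In bulk, over all sorted cells, the Fas-/- mean of Pdgfa was instead lower at each time. At 3 weeks it was 60.6 ± 21.4 against 67.3 ± 17.5 CPM. At 6 weeks it was 57.7 ± 3.84 against 63.1 ± 5.68 CPM, and neither difference was called. The 10 naive profibrotic fibroblast-like cells were too few to give a level.

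**Figure D4:**
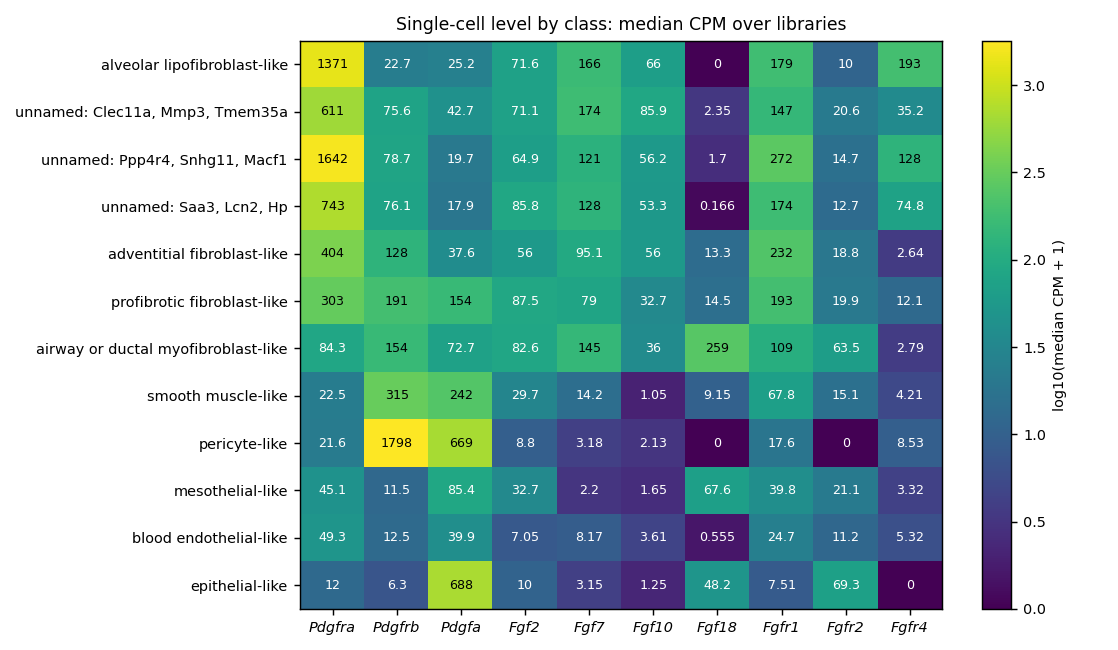
Heatmap of member levels (CPM within a row of cells) by cell class or cluster and by gene, taken as the median over the single-cell libraries with at least 20 cells of the class. Fgf18 peaks in airway or ductal myofibroblast-like cells, Pdgfrb in pericyte-like cells and Fgfr4 in lipofibroblast-like cells.

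Fgf18 was concentrated in airway or ductal myofibroblast-like cells, contractile cells marked by Hhip and Aspn, which held 52.6% of its UMIs. It was 259 CPM (210 to 317) in naive, 244 in 3-week Fas+/+, 193 (158 to 233) in 3-week Fas-/-, 300 in 6-week Fas+/+ and 369 (338 to 401) in 6-week Fas-/- cells. Without shared barcodes the naive value was 265 CPM (181 to 374). Mesothelial-like cells came next, with a median of 67.6 CPM. Fgf18 had 0 UMIs in 748 pericyte-like cells, which allows a level of up to 0.821 CPM and a share of up to 0.492% of cells with a UMI. In thinned cells 36.2% of airway or ductal myofibroblast-like cells had a Fgf18 UMI.

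Fgf2 was spread more evenly. In profibrotic fibroblast-like cells it was 64.6, 65.6, 110 and 128 CPM in 3-week Fas+/+, 3-week Fas-/-, 6-week Fas+/+ and 6-week Fas-/- libraries, so both 6-week values were above both 3-week values. In bulk, over all sorted cells, Fgf2 was instead lower at 6 than at 3 weeks in both genotypes. The log2 fold changes were -0.19 in Fas+/+ and -0.39 in Fas-/- mice, not called with all libraries. In airway or ductal myofibroblast-like cells it was 44.2, 97.2, 65.4, 82.6 and 142 CPM in library order, and the naive value without shared barcodes was 49.6 CPM. Its receptor gene Fgfr1 was 242, 230, 233, 232 and 219 CPM in adventitial fibroblast-like cells, with intervals that overlapped, and without shared barcodes too few naive cells of this class were left to give a level. In lipofibroblast-like cells Fgfr1 was 124 CPM in naive and 174, 179, 187 and 214 CPM in the later libraries, and the naive value without shared barcodes was 117 CPM (89.5 to 150). Fgfr2 was highest in epithelial-like cells, at a median of 69.3 CPM over 3 libraries, and in airway or ductal myofibroblast-like cells, at 63.5, 68.5, 89.0, 45.8 and 54.4 CPM, with 41.3 CPM (13.4 to 96.5) in naive cells without shared barcodes.

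**Figure D5:**
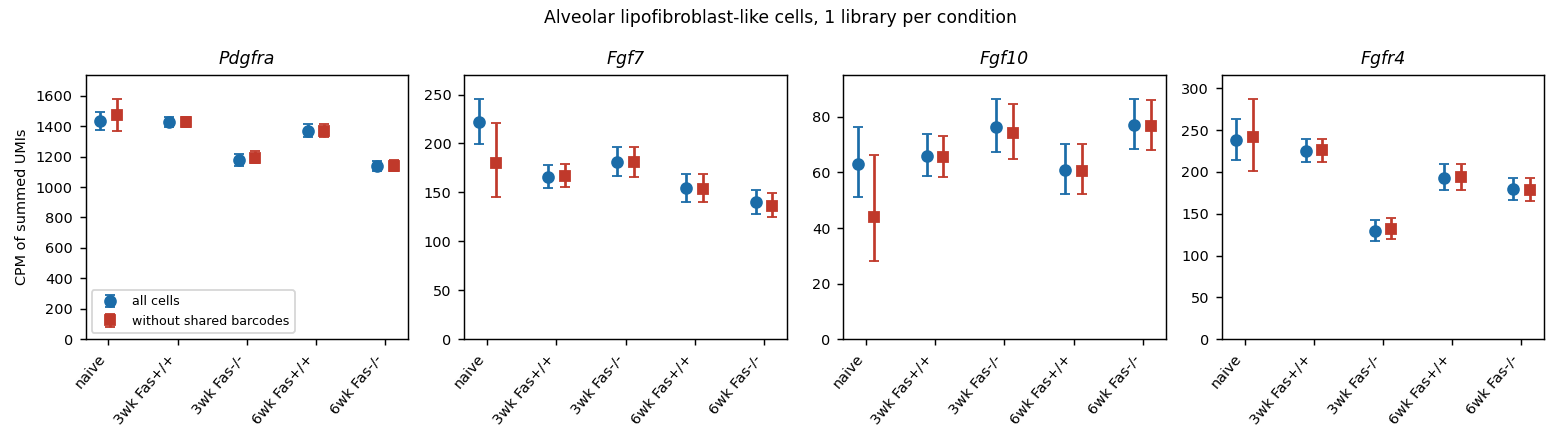
Level (CPM, axis from 0) of members in alveolar lipofibroblast-like cells of the 5 single-cell libraries, with 95% Poisson intervals, for all kept cells and without cells whose barcode was kept in another library. Pdgfra and Fgfr4 are lowest in Fas-/- cells, at 1138 CPM for Pdgfra at 6 weeks and 130 CPM for Fgfr4 at 3 weeks.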

How the data were processed

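Lin– cells were magnetically depleted of CD45+, CD31+ and CD326+ cells, sorted by FACS, and sequenced as bulk mRNA (stranded mRNA kit, 20 libraries) or single cells (5 libraries). Deposited bulk values were whole-number read counts per Ensembl gene, which the authors made with HISAT2 on GRCm38 and HTSeq. Deposited single-cell values were UMI counts per gene and barcode, which the authors made with Cell Ranger 3.0.2. Both were used as deposited.

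Bulk counts were tested with edgeR 4.0.16 (R 4.3.3), TMM normalization, the filterByExpr minimum and 1 quasi-likelihood fit of 5 group means. Adjusted p-values are Benjamini-Hochberg over 15773 genes, and the threshold was 0.05. CPM were TMM-normalized, exon lengths were unions over GENCODE M21, and the prior count was 2 for log2 CPM. Single members were also compared by a two-sided exact permutation test. DESeq2 1.42.0, RLE normalization, no filter, only the groups compared, a replicate block, 2 marker covariates and leaving out libraries were tried as alternatives. The edgeR script was tested on simulated data.

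The cell filter asked for 200 to 7500 detected genes and no more than 20% mitochondrial UMIs, and a gene had to be found in 4 cells or more. Seurat 5.3.0 gave SCTransform values, anchor integration over 3000 features, 20 components and SLM clusters at resolution 0.8, after 56 pathway genes, the 10 members among them, were left out. UMI counts of a class were summed per library and given as CPM with exact 95% Poisson intervals, for classes with at least 20 cells. For shares of cells, cells with at least 2000 UMIs were also downsampled to 2000 UMIs, as an expected share. The 2110 of 12059 kept cells with fewer UMIs were left out of these shares. A count of 0 was read as allowing up to 3 counts. PCR and sorting error are outside these intervals.

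The named genes were all 10 members, other pathway genes called in a comparison, and for each member the 3 genes with the highest Pearson's r over the 20 bulk libraries, some of which are not reported here. The members and lists were chosen with earlier results of these data known. No column of values lacked a sample.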

Additional observations from a re-analysis of the deposited data

Results flagged for a closer look

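Of 50 sets of 4 bulk libraries (10 members in 5 groups), 3 held a library far from the other libraries of its group, and chance gives about 1 in 20 such groups. Fgf2 was 75.9 CPM in replicate 4 of the 3-week Fas-/- group, against 164 to 182 CPM in the other 3. Fgfr1 was 330 CPM in the same library, against 465 to 491 CPM. This library was the highest of its group in blood endothelial markers, whose part in these values was not tested. Fgf18 was 9.35 CPM in replicate 1 of the naive group, against 17.7 to 18.3 CPM in the other 3.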

How the results depend on the processing

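The calls of Pdgfra, Fgf7, Fgf10 and Fgfr4 at 3 weeks were the same with DESeq2, with RLE normalization, without the filter on low counts and with the replicate block, and for Fas+/+ mice the number of members called was within 1.5 times of 4 under each alternative. Over 101 results for single genes, RLE normalization kept the direction and side of the threshold in 101, DESeq2 in 99, the replicate block in 96, no filter in 90, the fit without the 2 endothelial-marker-high libraries in 89, only the groups compared in 88, the blood endothelial covariate in 70 and the epithelial covariate in 63. The counts of members called below have no share over all tested genes beside them. Such shares were computed only for the main fit and for the fit without the 2 libraries, and stand in the results above. A changed count is therefore not a result about the members alone, also where 1 library at a time was left out. For the number of members called, DESeq2 gave 3 for Fas-/- at 6 against 3 weeks. No filter gave 0 for each genotype at 6 weeks against naive. The replicate block gave 0 for 6-week Fas-/- against naive and 2 for Fas-/- at 6 against 3 weeks. The blood endothelial covariate gave 0 for 6-week Fas+/+ against naive and 2 for Fas-/- at 6 against 3 weeks, and the epithelial covariate gave 1 for 3-week Fas-/- and 0 for each genotype at 6 weeks against naive. Without the 2 libraries, an alternative chosen after seeing the data, the counts were 7 for 3-week Fas-/- and 3 for 6-week Fas-/- against naive, 3 for 6-week Fas+/+ against naive, 3 between genotypes at 3 weeks, 6 for Fas+/+ and 3 for Fas-/- at 6 against 3 weeks and 1 (Fgfr4) for the difference between genotypes over time. Neither of the 2 libraries belongs to the comparisons of 6 weeks with naive. There the log2 fold changes stayed nearly the same and the SE, which rests on a spread shared over the fit, became smaller. For Fgfr4 in Fas-/- mice the values were -0.65 ± 0.25 with all libraries and -0.65 ± 0.16 without the 2. The cause of the other shifts was not tested.

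When each library in turn was left out, the number called ranged from 4 to 5 for 3-week Fas+/+, 4 to 6 for 3-week Fas-/-, 0 to 2 for each genotype at 6 weeks, 0 to 2 between genotypes at 3 weeks, 0 to 0 at 6 weeks, 4 to 4 for Fas+/+ at 6 against 3 weeks, 1 to 3 for Fas-/- and 0 to 1 for the difference over time.

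Directions of log2 fold changes that had not passed the test turned for several genes. Fgf2 at 3 weeks in Fas+/+ mice was -4.38e-05 without the filter, -0.018 with the replicate block and -0.12 to 0.22 with 1 library left out. Pdgfrb at 3 weeks became 0.38 with the blood endothelial covariate and 0.28 with the epithelial covariate in Fas+/+ mice, and 0.037 and 0.18 in Fas-/- mice. Fgfr1 in 3-week Fas+/+ mice became 0.26 and 0.30 with these covariates. In 3-week Fas-/- mice Fgfr1 ran from -0.045 to 0.13 and Fgf18 from -0.36 to 0.037 with 1 library left out, and Fgf18 was 0.042 without the 2 libraries. Fgf7 between genotypes at 6 weeks was -0.046 with the blood endothelial covariate and -0.026 to 0.10 with 1 library left out. Among called genes Grb2 in 3-week Fas+/+ mice became -0.00561 with the blood endothelial covariate, and Pdgfb and Plcg1 in 3-week Fas-/- mice became -0.090 and -0.072 with the epithelial covariate.

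Samples with the same replicate number did not deviate together. Over 40 pairs r ran from -0.46 to 0.40 with a median of 0.034, and 14 were over 0.1, so the numbers were not taken as pairing. In single cells, over all 5 libraries, clustering at resolution 0.4 moved Pdgfra in lipofibroblast-like cells to 1324 CPM and Fgf18 and Fgfr2 in airway or ductal myofibroblast-like cells to 328 and 51.4 CPM, and leaving out shared barcodes moved Fgf7 in lipofibroblast-like cells to 160 CPM, each by more than its counting interval. Depth limits levels in classes with few naive cells.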
